A study of Mus musculus with 6 samples.

Results

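Ptbp1, which encodes polypyrimidine tract binding protein 1, and its paralog Ptbp2 were followed through every row that carries either name in the 2 deposited exon usage tables. These rows are 3 exon bins of 2 genes, out of 1089 bins of 702 genes listed in either table. All 3 rows are in the table for the knockdown of Ptbp1: bin 13 of Ptbp1 (Entrez 19205), and bin 4 and the bin without a number of Ptbp2 (Entrez 56195), called here the unsuffixed bin. The table for the knockdown of the long noncoding RNA Pnky lists 0 rows for either gene.

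The series holds 6 strand-specific, poly(A)-selected RNA libraries of mouse cells (C57/B6) taken from the ventricular-subventricular zone, a stem cell niche of the forebrain, between postnatal days 5 and 7. The cultures grew in serum-containing medium with N2 supplement, bovine pituitary extract, EGF and FGF, and all groups carried a PSICO-R vector with a short hairpin RNA and were sorted for its GFP, or for GFP and mCherry together. The hairpin was directed against luciferase (shCtrl), Pnky (shPnky) or Ptbp1 (shPtbp1), with 2 libraries each, and all results here compare the shPtbp1 with the shCtrl libraries. The labels name no separate animals or cultures behind the 2 libraries of a group, so a p-value here reflects how far these libraries differ from each other, which may be technical only. They name 1 hairpin label per target, so effects of a second hairpin were not analysed here.

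PTBP1 binds pyrimidine-rich stretches of pre-mRNA and represses many exons that neurons include. Neural progenitors express mainly Ptbp1 and neurons mainly Ptbp2, and the repressor keeps both its own output and that of its paralog low by promoting the skipping of a short coding exon. Transcripts that skip this exon shift their reading frame and are degraded. In the reference annotation the exon is 34 bases long in both genes. Its sequences are shown because this is the best known site at which PTBP1 acts on both transcripts, and capitals mark the bases at which the paralogs differ (GENCODE M21 transcripts, GRCm38, 5′ to 3′).
Ptbp1: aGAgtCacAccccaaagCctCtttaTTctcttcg
Ptbp2: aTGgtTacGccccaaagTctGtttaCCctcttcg
The exons share 26 of 34 bases (76.5%) and differ at 8. Over the 3 curated Ptbp1 and 2 curated Ptbp2 transcripts of the annotation, the longest identical stretch was 14 bases. How the authors counted reads that fit several places is not stated in the labels or headers.

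The deposited tables hold bin numbers but no positions, so the place of the 3 bins was read from the annotation as far as the numbers allow. Ptbp2 lies on the minus strand and Ptbp1 on the plus strand. Among the 487 listed bins of minus-strand genes that could be matched to an annotation model by number, the read count ranked more closely with bin length when bins were numbered from the lowest coordinate (Spearman's rho 0.38 across bins) than from the 5′ end (0.12). On the minus strand 148 unsuffixed bins were listed, with a median mean count of 3665, against 501 for all numbered bins listed on that strand. On the plus strand the 50 unsuffixed bins had a median of 784, against 1186 for the others. These values are descriptions across bins that share libraries and genes, and numbering from the lowest coordinate was assumed from them; the tables do not state it. Under that assumption the unsuffixed bin of Ptbp2 is the last exon, which holds the 3′ untranslated region and is 1716 or 1719 bases long depending on the transcripts used.

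Bin 4 of Ptbp2 is an internal coding exon under that numbering, but which one depends on the transcript models. With either curated mRNA alone, number 4 falls on the 34-base exon printed above. With both mRNAs together, a bin of 3 bases splits off the last exon and number 4 falls on the neighbouring exon of 93 bases. The labels and headers do not name the bin annotation, and the identity of bin 4 as the 34-base exon was not established. Bin 13 of Ptbp1 could not be placed. Depending on the transcripts combined, it was the last exon of 1288 bases or an internal bin of 78, 93 or 217 bases. Curated Ptbp1 mRNAs that have 13 bins when taken alone hold no bin of that number.

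**Figure D1:**
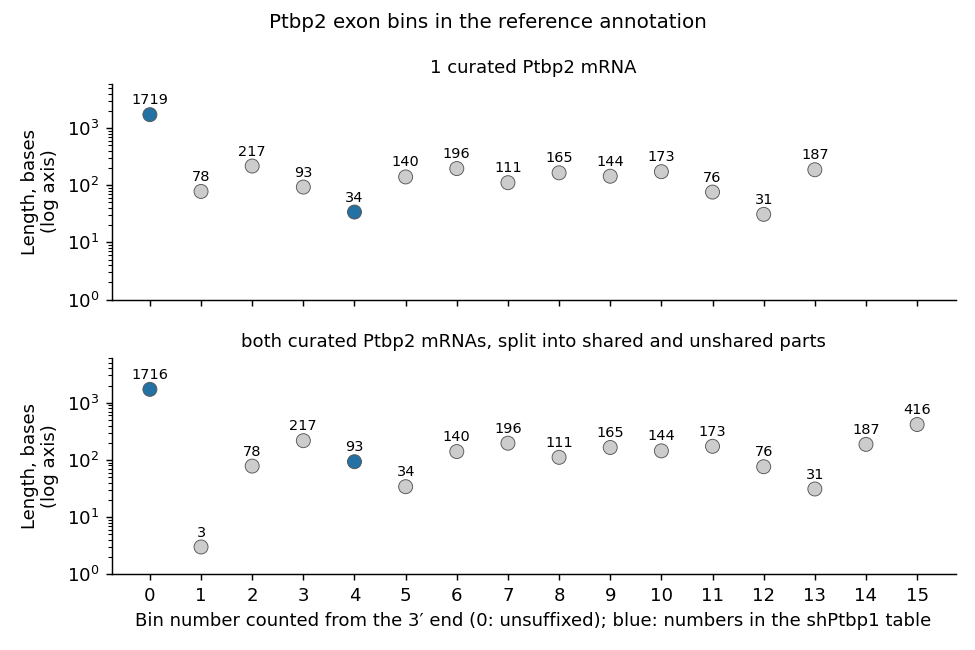
Length in bases (log axis) of each exon bin of Ptbp2 in the reference annotation, by bin number from the 3′ end, for 1 curated mRNA (top) and for both together (bottom). Blue points are the numbers the shPtbp1 table lists: under the assumed numbering, number 0, the unsuffixed bin, is the last exon in both models, while number 4 is 34 bases long in the upper and 93 bases in the lower model.

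The targeted gene was examined first. Bin 13 of Ptbp1 was covered by 22334 and 19594 reads in shCtrl, against 4967 and 4961 reads after knockdown. Both knockdown libraries were far below both controls, and within each group the 2 libraries lay close together. In CPM of the listed reads (reads per 1000000, with TMM scaling of the libraries), the level was 5861 ± 117 in shCtrl and 1328 ± 10.8 in shPtbp1 (SD, n = 2), so that 22.7% of the control level remained. In edgeR's quasi-likelihood test over 946 listed bins the log2 count change was -2.14, with an SE of 0.035 and an adjusted p of 1.84e-21. These bins had been listed by the authors from the same libraries. The spread shared over bins and the adjustment of this p therefore rest on a selected set. In the same test 369 of the 946 bins, 39.0%, were lower, and 10 bins of 3 genes (Tpm1, Zak and Tmem87a, named after their values were seen) had a more negative count change than Ptbp1. RNA was measured in bulk, so less Ptbp1 RNA per cell and fewer cells with Ptbp1 RNA cannot be told apart.

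Ptbp1 was also among the most abundant listed bins: its mean count of 12964 ranked 57 of 958. Of all listed reads, 0.570% and 0.557% fell in this bin in shCtrl, compared with 0.137% and 0.139% in shPtbp1. The mean loss of 16000 reads was the second largest of any listed bin by raw count.

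The paralog moved in the opposite direction. In shCtrl, 313 and 290 reads fell in bin 4 of Ptbp2, and in shPtbp1 673 and 700. Its scaled level went from 84.4 ± 1.57 to 184 ± 6.77 CPM of the listed reads (SD, n = 2), a 2.18-fold rise, and the log2 count change of 1.12 had an SE of 0.081 (edgeR quasi-likelihood test, adjusted p = 5.98e-11). For the unsuffixed bin the counts were 5760 and 5423 in shCtrl, and 9075 and 9007 in shPtbp1. Its scaled level went from 1566 ± 46.9 to 2419 ± 8.96 (SD, n = 2), a 1.54-fold rise, and on the log2 scale the count changed by 0.63 (SE 0.035, adjusted p = 1.22e-12 in the same edgeR test). Every shPtbp1 library was above every shCtrl library in both bins. How many of all listed bins separate in this way was not counted, so the separation is a description only. In this test 375 of 946 listed bins (39.6%) were higher. By size, bin 4 ranked 113 and the unsuffixed bin 202 from the top of 946, while Ptbp1 ranked 11 from the bottom. The 2 rises were thus above most listed bins but not among the most extreme.

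**Figure D2:**
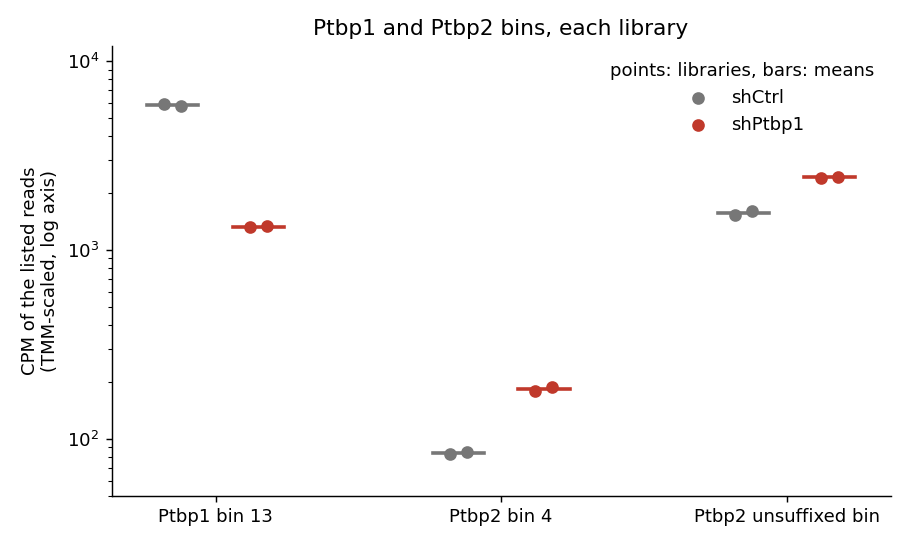
CPM of the listed reads (TMM-scaled, log axis) of the 3 bins in each of the 4 libraries; points are libraries and bars are means of 2. Ptbp1 bin 13 is lower in both shPtbp1 libraries (means 5861 and 1328), and both Ptbp2 bins are higher (84.4 and 184 for bin 4, 1566 and 2419 for the unsuffixed bin).

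The split of higher and lower bins over the whole table depended on the scaling. With the libraries scaled to the total of listed reads it was 452 higher and 293 lower, and with upper quartile scaling 504 and 224. The median log2 count change of all bins was 0.014 with the scaling used here, 0.127 with the total and 0.23 with the upper quartile. The 3 member bins kept their direction under each scaling, also relative to these medians.

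**Figure D3:**
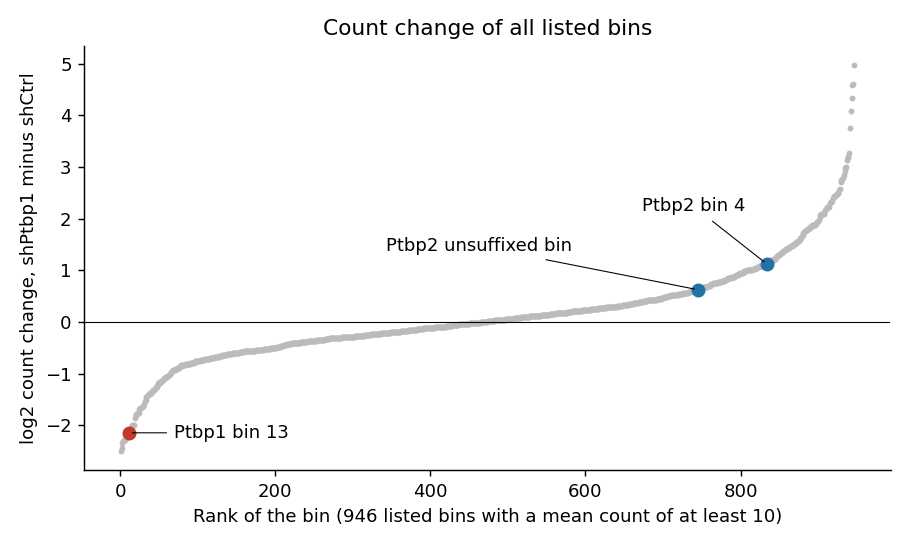
The log2 count change (shPtbp1 minus shCtrl) of the 946 listed bins with a mean count of at least 10, ordered from the lowest to the highest. Ptbp1 bin 13 (red, -2.14) stands near the lower end at rank 11, and the Ptbp2 bins (blue, 0.63 and 1.12) lie on the rising part of the curve.

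A ratio of reads within a library needs no scaling. For every 100 reads in the listed bin of Ptbp1, there were 27.2 and 29.2 reads in the listed Ptbp2 bins in shCtrl, compared with 196.3 and 195.7 in shPtbp1. The mean ratio went from 28.2 ± 1.39 to 196.0 ± 0.42 (SD, n = 2), a 6.96-fold change or 2.80 on the log2 scale. The bins differ in length and the ratio is not one of transcripts, so only its change between groups is read. With 2 libraries against 2, the two-sided exact permutation test cannot give less than p = 0.333, the value found here.

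The authors' test asked a different question, namely whether a bin's share of its gene differed between the groups, and the rule for listing a bin was an adjusted p under 0.01. That rule was met by 958 of 160290 tested bins, 0.598%, in the shPtbp1 comparison and by 0.155% in the shPnky comparison. The numbers of tested bins are not stated and were worked out from the ranked p-values and their adjusted values. In the shPtbp1 comparison 85.3% of the listed bins gave that number within 2. In the authors' deposited table for shPtbp1, Ptbp1 bin 13 had an adjusted p of 2.39e-06 and a log2 fold of usage of only 0.03. In that table its fitted usage was 133 in shCtrl and 136 in shPtbp1. The 4.41-fold fall in its reads was therefore not a fall in its usage, which is relative to the other bins of Ptbp1. By size, this fold ranked 850 among the 945 listed folds in the authors' deposited table, and the estimated dispersion of the bin (6e-05) was below the median of the table (0.00041). No second bin of Ptbp1 was listed, so no share could be computed for it.

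For Ptbp2 the authors' deposited table gives bins in opposite directions. Bin 4 had a higher usage (log2 fold 0.18, adjusted p = 0.00019 in the authors' deposited table) and the unsuffixed bin a lower one (log2 fold -0.05, adjusted p = 0.00033 in the same table). These are changes of 32.1 to 36.3 and of 119.6 to 115.5 in the fitted usage of the authors' deposited table. The members stood at ranks 369, 533 and 561 of 958 by adjusted p, and the median absolute log2 fold of the table was 0.16.

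The raw counts show the same shift within Ptbp2. Bin 4 took 5.15% of the reads in the 2 listed bins in the first shCtrl library (95% Wilson interval 4.63 to 5.74%) and 5.08% in the other (4.54 to 5.68%). It took 6.90% (6.42 to 7.42%) and 7.21% (6.71 to 7.74%) in the shPtbp1 libraries. The intervals cover counting error only, and those of the groups did not overlap. For how many other listed bins such intervals separate was not counted. Both bins had been listed for a difference in usage in these same libraries, so the intervals lend the shift no independent support. The mean share rose from 5.12% ± 0.06 to 7.06% ± 0.22 (SD, n = 2), by 1.94 percentage points or 1.38-fold, and the two-sided exact permutation p was 0.333, the smallest this design allows. Put differently, each read of bin 4 stood beside 18.4 and 18.7 reads of the unsuffixed bin in shCtrl and 13.5 and 12.9 in shPtbp1.

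Each bin was also tested against the change of its gene over all its listed bins, itself included. Bin 4 of Ptbp2 was higher by 0.47 on the log2 scale (edgeR diffSpliceDGE over 514 bins of 159 genes, adjusted p = 7.25e-05). The unsuffixed bin, which holds most of the listed Ptbp2 reads and so largely sets the gene's change, differed from it by -0.03 (edgeR adjusted p = 0.51). That value does not measure its change against bin 4: the unsuffixed reads per read of bin 4 changed by -0.49 on the log2 scale. Of the 514 bins 73.3% passed the diffSpliceDGE test. The bins had been listed because their usage differed in the same libraries, so the test describes the size of the shift and lends it no independent support. The other bins of Ptbp2 were not analysed here, and the share is one of 2 bins, not of the transcripts that include an exon.

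**Figure D4:**
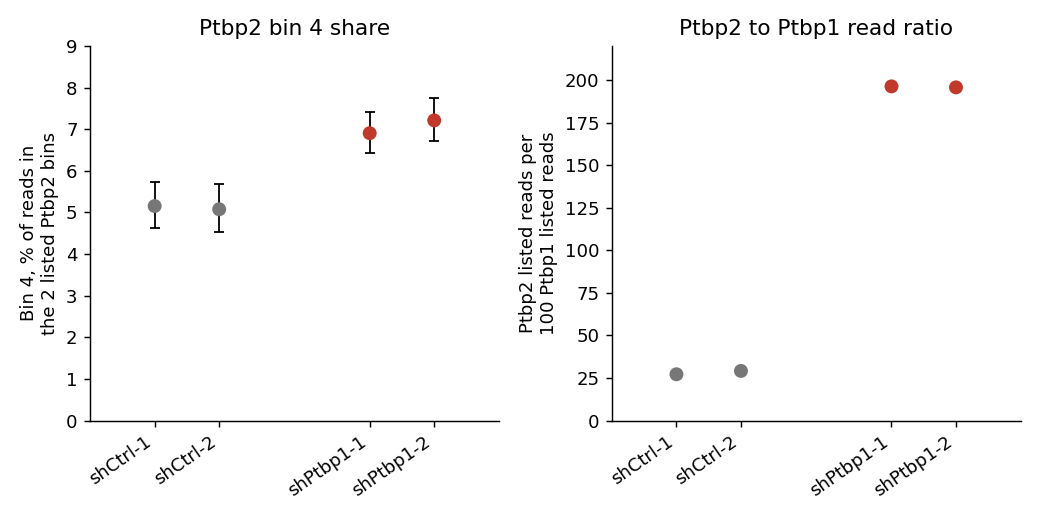
Left, percent of the reads in the 2 listed Ptbp2 bins that fall in bin 4, for each library, with 95% Wilson intervals. Right, reads in the listed Ptbp2 bins per 100 reads in the listed Ptbp1 bin; both measures are higher in both shPtbp1 libraries (6.90% and 7.21%, 196.3 and 195.7) than in both shCtrl libraries (5.15% and 5.08%, 27.2 and 29.2).

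Other genes of the same pathway were looked up in lists chosen with earlier results of these data known. The counts of listed genes below stand beside 0.598% of tested bins listed in shPtbp1 and 0.155% in shPnky. These are shares of bins, and the share of all tested genes with a listed bin is not known, so no list is read as having more or fewer listed genes than others. Of 12 genes of the PTB family and its direct partners, Ptbp1 and Ptbp2 were the 2 with a listed bin in shPtbp1, and 0 had one in shPnky; the 2 are the genes described here, and their count is no finding. Ptbp3, the third family member, and the co-repressor genes Raver1, Raver2 and Matr3 were thus not called by the authors in either table. Of 18 neuronal splicing regulators, among them the Rbfox, Nova and Elavl genes, 1 was listed in shPtbp1, Celf1, and 1 in shPnky, Qk; both encode RNA-binding proteins. Celf1 had 4 listed bins, and only bin 14, with the smallest adjusted p of the authors, is described here. This bin had 3317 and 2965 reads in shCtrl and 2675 and 2671 in shPtbp1. Its log2 count change was -0.30 (SE 0.041, edgeR adjusted p = 1.33e-06). Absence from a table means that no bin met the authors' rule, and says nothing of the gene's level.

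Of 41 genes known for exons that PTBP1 controls, the members included, 18 had a listed bin in shPtbp1 and 7 in shPnky. The count of the bin with the smallest adjusted p rose in 9 of the 18, fell in 8 and did not pass in 1, Fgfr2 (log2 count change 0.03, edgeR adjusted p = 0.74). Over all 591 genes tested in the same way, 34.7% of these bins rose and 45.3% fell. Bin 8 of Ap2a1, for a subunit of the endocytic adaptor AP-2, rose by 2.99 on the log2 scale (edgeR adjusted p = 3.94e-13), and bin 4 of Clta, a clathrin light chain, by 1.79 (adjusted p = 2.03e-10). Bin 12 of Rufy3, which encodes a protein of neuronal polarity, rose by 1.50 (edgeR adjusted p = 1.7e-16), and bin 3 of Rtn4 (Nogo) by 0.68 (adjusted p = 7.96e-13). The leading bins of Tpm1, Ncam1, Dclk1 and Kif1b had log2 count changes of -2.18, -1.42, -0.63 and -0.35, all past the threshold (largest edgeR adjusted p = 1.33e-08). Against these, the rise of Ptbp2 bin 4 was of middle size and the fall of Ptbp1 close to that of the Tpm1 bin.

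Listed bins with the pattern most like that of the members were found by the distance between centred log2 CPM over the 4 libraries. With 2 groups this distance mostly reflects the count change, and it is given as a description. Among the nearest to Ptbp1 bin 13 were Zak bin 20 (distance 0.082), the unsuffixed bin of Tpm1 (0.122), Tmem87a bin 9 (0.327) and Pdlim7 bin 3 (0.327). Their log2 count changes lay between -2.22 and -2.12. These 4 bins had a log2 fold of usage of -0.69 or lower in the authors' deposited table, where Ptbp1 had 0.03. Nearest to Ptbp2 bin 4 were Gnao1 bin 9 (distance 0.026), the unsuffixed bin of Kazn (0.056), Sorbs2 bin 14 (0.060), Il18bp bin 2 (0.067) and Tpm1 bin 3 (0.076), with log2 count changes from 1.08 to 1.16. Tpm1, which has 11 listed bins, had 1 bin near each member. Only the nearest bin of each gene was kept, so no gene could appear with more.

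Markers of cell types were looked up in the same table, as far as they were listed, and their counts carry the same limit. Among the 11 markers of neural stem cells and astrocytes 4 were listed, with the count of Aldoc higher (log2 count change 0.80, edgeR adjusted p = 1.33e-13), those of Gfap (-0.32, adjusted p = 3.01e-08) and Egfr (-0.20, adjusted p = 9.8e-06) lower, and that of Prom1 not past the threshold (0.27, adjusted p = 0.23). Egfr had 2 listed bins, and its value is for the bin with the smallest adjusted p of the authors. The listed bin of Gfap, the intermediate filament of astrocytes and adult stem cells, had 39928 and 34852 reads in shCtrl and 32261 and 30128 in shPtbp1. Ncam1 was the 1 listed gene of 8 transit-amplifying cell and neuroblast markers. Of 5 neuron markers Syt1 was listed, with 12 and 12 reads in shCtrl and 26 and 30 in shPtbp1 (log2 count change 1.16, edgeR adjusted p = 0.0053). Of the 18 oligodendrocyte-lineage, ependymal, microglial, endothelial and pericyte markers 0 were listed. The part of these genes in the changes of Ptbp1 and Ptbp2 was not tested.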

How the data were processed

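The authors deposited 1 exon usage (DEXSeq) table per knockdown. Per the file headers, each holds the raw count of every listed bin in 4 libraries, a p-value and adjusted p-value, and a log2 fold of fitted usage; the fitted usage values, dispersion and statistic are scores of the authors' model, and the deposited mean signal equals the mean of the 4 counts. Per the submitters' processing notes the build was mm9, and Cuffdiff 2.1.1, Cuffnorm, Cufflinks, TopHat and TopHat2 2.0.10 are named without roles. No source used here gives the DEXSeq version or bin annotation. Listed reads per library were 3514859 to 3920040 in the shPtbp1 table; these are not library sizes. The shCtrl counts of the 118 bins listed in both tables were equal.

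Libraries were grouped by hairpin. Count changes used edgeR 4.0.16 (R 4.3.3): TMM scaling over listed bins, mean count of at least 10, glmQLFTest, Benjamini-Hochberg adjustment over 946 bins and a threshold of 0.01. diffSpliceDGE tested usage within genes. DESeq2 1.42.0 was an alternative, as were other scalings and filters, a fit with the replicate number as a block, and fits without each library. The libraries of a group were no duplicates: chi-square per degree of freedom was 2.65 and 4.31. In simulated counts with log2 changes of 1 in size, the count test recovered 195 of 199 changed bins and called 1 of 745 unchanged ones. The usage test recovered 29 of 60 changed bins and called 2 of 318 unchanged ones. Both simulations changed far fewer bins than passed in the data and gave every bin the same dispersion. Rises and falls were balanced in the count simulation, while their split in the data depended on the scaling. These rates of recovery and false calls therefore need not hold for the data. Annotation models came from GENCODE M21 (GRCm38), used for lengths, strand and sequence; no coordinates were taken across builds. Named besides the members were the 5 nearest patterns per member, of which 1 is not reported here, and up to 8 listed genes per gene list; the genes named as absent were chosen afterwards. Members and lists were chosen with earlier results of these data known.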

Additional observations from a re-analysis of the deposited data

How the results depend on the processing

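Under all 13 alternatives the count changes kept their direction and stayed past the threshold: -1.93 to -2.16 on the log2 scale for Ptbp1 bin 13, 1.08 to 1.34 for Ptbp2 bin 4 and 0.59 to 0.84 for its unsuffixed bin. The usage of Ptbp2 bin 4 within the gene did so under all 8 that were run (0.43 to 0.50). With a replicate block the 3 count changes were -2.14, 1.12 and 0.63 (largest edgeR adjusted p = 2.47e-06) and no call on a member was lost; the labels give the libraries only a shared number, and the correlation of same-numbered deviations was 0.028 over 946 bins and 0.152 over the 835 with a mean count of at least 100. Leaving out each library gave -2.12 to -2.16, 1.08 to 1.18 and 0.59 to 0.66, a share difference of 1.79 to 2.1 percentage points, a log2 ratio change of 2.75 to 2.85, and 353 to 365 higher and 333 to 351 lower bins; a lone library was then assumed to vary like the other group. With 1 bin per gene, which leaves fewer bins, 231 were higher and 215 lower. Upper quartile scaling left 224 lower bins, and the cause was not tested. With bin 4 alone in place of both Ptbp2 bins, the log2 change of the ratio to Ptbp1 was 3.26, since that bin rose more. At an adjusted p under 0.0001, 1 of the 3 member bins would be listed, that of Ptbp1. All fits see only bins the authors had called in the same libraries. Their scaling, shared spread and adjusted p-values rest on such bins, and uncalled bins of both genes were not analysed here.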
